A study of Mus musculus with 12 samples.

Results

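A set of 9 secreted proteins that nourish peripheral nerve and its motoneurons was followed in mice lacking Gdap1: Gdnf, Artn, Bdnf, Ntf3, Lif, Cntf, Igf1, Nrg1 and Ptn. Their transcripts were looked up by symbol on the array, and a probe set was kept where the platform annotation gave it exactly 1 symbol and that symbol was one of the 9. The rule kept 14 of 45037 probe sets, which stand for 7 of the 9 ligands among 18193 genes: 4 probe sets for Igf1, 3 for Ptn, 2 each for Bdnf and Lif, and 1 each for Gdnf, Artn and Nrg1. The annotation gave Cntf only together with other symbols, so it has no value, and Ntf3 was not analysed here. GDAP1 is a protein of the outer mitochondrial membrane, and its gene is mutated in some families with Charcot-Marie-Tooth disease. The 4 groups were motoneurons cut by laser from Gdap1 knockout mice, motoneurons cut by laser from wild type mice, whole sciatic nerve lysate of knockout mice and whole sciatic nerve lysate of wild type mice, with 3 arrays in each. All mice were untreated and aged 2 months. Each array is labelled a biological replicate, and per the design text the 3 samples of a group were picked for how much RNA they gave and how good it was, out of 5 mice. The same text places the array's Gdap1 probe sets outside the deleted part of the gene, so the Gdap1 values check nothing about the genotype labels.

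Trophic ligands are secreted by one cell and read by receptors on another, and in the peripheral nerve they run both ways. Axons carry neuregulin 1, which tells Schwann cells through ERBB2 and ERBB3 to survive and how much myelin to make. Schwann cells, fibroblasts and target tissues in turn supply the GDNF family, which acts through RET and a GFRA co-receptor, the neurotrophins, which act through Trk receptors, the interleukin 6 type cytokines CNTF and LIF, which act through gp130 and the LIF receptor, and IGF1.

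Promoter sequences are shown for the called ligands with the largest difference between motoneurons and nerve, because that difference between tissues is what the data on these ligands turn on. Each is the 250 bases before the transcript start, from RefSeq in build GRCm38.p6, all on the plus strand and written 5′ to 3′. The windows are chr10:87860861-87861110 for Igf1, chr11:4257318-4257567 for Lif and chr2:109674450-109674699 for Bdnf, whose table entry holds 7 start sites, the most upstream of which is printed. Nrg1 belongs to the same 4 ligands and is named only.
Igf1: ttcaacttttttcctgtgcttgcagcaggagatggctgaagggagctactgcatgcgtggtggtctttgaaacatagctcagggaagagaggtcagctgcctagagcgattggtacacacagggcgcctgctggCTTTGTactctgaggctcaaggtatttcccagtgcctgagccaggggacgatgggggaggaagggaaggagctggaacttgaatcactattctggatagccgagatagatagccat
Lif: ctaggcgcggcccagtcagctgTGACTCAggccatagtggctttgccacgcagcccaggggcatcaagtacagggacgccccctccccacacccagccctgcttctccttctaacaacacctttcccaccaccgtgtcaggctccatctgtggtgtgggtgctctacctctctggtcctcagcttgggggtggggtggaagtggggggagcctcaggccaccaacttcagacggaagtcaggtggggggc
Bdnf: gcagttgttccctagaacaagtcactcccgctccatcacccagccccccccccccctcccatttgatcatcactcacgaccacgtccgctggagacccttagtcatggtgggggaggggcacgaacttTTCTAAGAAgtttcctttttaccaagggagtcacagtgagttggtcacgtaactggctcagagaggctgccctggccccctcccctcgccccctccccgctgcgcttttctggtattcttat
Capitals mark the motifs a search of both strands found. The letters searched were TATAAA for a TATA box, GGGCGG for a GC box, TGACTCA for AP-1, TGACGTCA for the cyclic AMP response element (CRE), TTCNNNGAA for STAT factors and ACAAAG for SOX factors. The Igf1 window held 1 SOX motif, on the minus strand and 116 bases before the start, and 16.5% of all 32851 windows of this length hold that motif. The Lif window held 1 AP-1 motif, 228 bases before the start, which occurs in 4.46% of the windows. The Bdnf window held 1 STAT motif, 122 bases before the start, which occurs in 7.02%. None of the 3 windows printed held a TATA box (12.4% of windows), a GC box (32.7%) or a CRE (1.55%). The other 6 Bdnf windows are not printed, and among them window 2 held 2 GC boxes, window 4 held 1 GC box and window 3 held 1 SOX motif. GC content was 52.8% for Igf1, 63.6% for Lif and 58.0% for Bdnf. These matches describe the letters in the windows and carry no information on binding.

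Each probe set has 1 deposited log2 expression value per array. Array medians lay between 6.53 and 6.59 in motoneurons and between 8.29 and 8.40 in nerve, and the quartiles within a tissue nearly coincided, so the tissues were read as scaled separately. A difference between tissues therefore depends on the scale, and it also goes with the extraction kit, which per the labels differed between tissues and cannot be told apart from tissue. In both tissues, fewer cells of a type and less RNA per cell cannot be told apart. The mean of 13 motoneuron markers was 12.2 to 12.5 in motoneuron arrays and 6.85 to 7.19 in nerve arrays. As deposited, 12 of these were called higher in motoneurons in each genotype (limma, adjusted p under 0.05). Over all probe sets, 15.2% were called higher and 67.5% lower in knockout, and 14.3% higher and 67.9% lower in wild type mice. The marker Chat went the other way, with means of 4.58 in knockout and 4.83 in wild type motoneurons, against 5.17 and 5.12 in nerve. It was called lower in knockout mice. The mean of 9 markers of myelinating Schwann cells was 9.41 to 9.70 in motoneuron arrays and 14.3 to 14.5 in nerve arrays. The mean of 10 astrocyte markers was 10.01 to 10.70 in motoneuron arrays and 9.36 to 9.97 in nerve arrays. In each genotype 5 of these were called higher in motoneurons and 4 lower. The mean of 9 oligodendrocyte markers was 10.01 to 10.96 in motoneuron arrays and 8.57 to 8.87 in nerve arrays. Of these, 6 were called higher and 3 lower in each genotype. The mean of 8 interneuron markers was 8.83 to 9.74 in motoneuron arrays and 4.55 to 5.49 in nerve arrays. Of these, 7 were called higher and 1 lower in knockout, and 6 higher and 0 lower in wild type mice. The part of other cells in the ligand values of motoneuron arrays was not tested. Wild type motoneuron replicate 3 stood apart from its group: over all probe sets its mean correlation was 0.989 with the knockout motoneuron arrays and 0.987 with the other wild type motoneuron arrays, the only motoneuron array closer to the other genotype.

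Nrg1, Bdnf, Igf1 and Lif divided the ligands by tissue. Nrg1 and both Bdnf probe sets were higher in motoneurons, and all 4 Igf1 and both Lif probe sets were higher in nerve, in knockout and in wild type mice alike. Of the 14 probe sets, 3 were called higher and 10 lower in motoneurons than in nerve in knockout mice, where 15.2% of all probe sets were called higher and 67.5% lower (limma, adjusted p under 0.05 over all 45037 probe sets). The counts in wild type mice were again 3 higher and 10 lower, against 14.3% and 67.9% of all probe sets. The knockout and wild type comparisons share no array. Over all probe sets the median difference was -1.04 on the log2 scale in knockout and -1.09 in wild type mice, and over the members it was -1.82 in knockout and -1.78 in wild type mice. When every array was centred on its median, the median of all probe sets became 0.74 in knockout and 0.67 in wild type mice, and when the arrays of both tissues were quantile normalized together it became 0.16 in knockout and 0.15 in wild type mice. The share of calls that were higher in motoneurons moved with it in knockout mice, to 69.5% with centring and 54.7% with quantile normalization, against 18.4% as deposited. In wild type mice that share was 69.0% with centring and 54.6% with quantile normalization, against 17.4% as deposited. Among the members, centring gave 5 calls higher and 6 lower in knockout and 6 higher and 5 lower in wild type mice, and quantile normalization gave 5 higher and 6 lower in knockout and 5 higher and 5 lower in wild type mice. Each tissue difference of a member below is accordingly given on all 3 scales where its direction or its call moved.

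**Figure D1:**
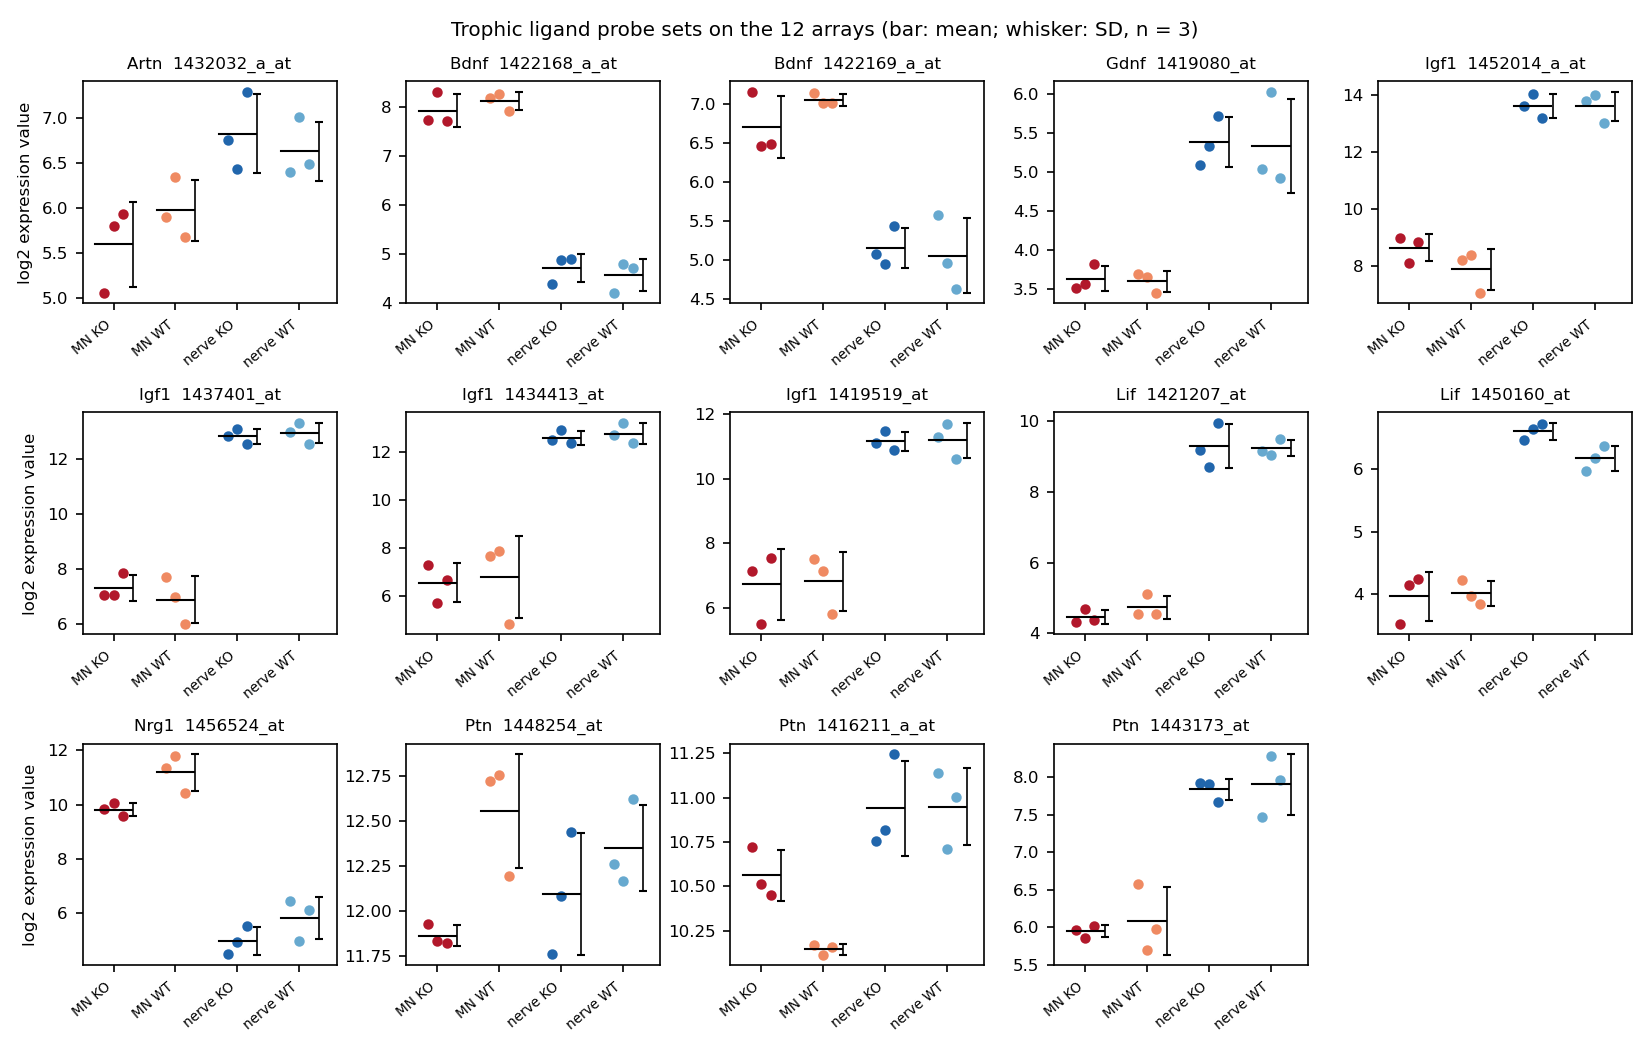
Log2 expression value (vertical axis, a scale of its own in each panel) of the 14 ligand probe sets on the 12 arrays, by group (MN, motoneurons), with dots for arrays, a line for the mean and a whisker for the SD (n = 3). Nrg1 and Bdnf stand high in motoneurons, Igf1 and Lif stand high in nerve, and within a tissue the genotypes overlap in all but the Nrg1, 1448254_at and 1416211_a_at panels for motoneurons and the Lif 1450160_at panel for nerve.

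Gdnf, the founding member of its family and a survival factor for motoneurons, was low on every array. Its probe set (1419080_at) read 3.52, 3.56 and 3.82 in knockout motoneurons and 3.70, 3.65 and 3.45 in wild type motoneurons. In nerve it read 5.09, 5.34 and 5.73 in knockout and 5.05, 6.04 and 4.93 in wild type mice. All 12 values lay under the lower quartile of their own array, which was 4.30 to 4.39 in motoneurons and 6.03 to 6.08 in nerve. Motoneurons lay below nerve with no overlap on the deposited scale, by -1.75 in knockout (SE 0.21, adjusted p = 5.33e-05 by limma) and -1.74 in wild type mice (SE 0.29, adjusted p = 0.000666). After centring the difference was 0.026 in knockout and 0.022 in wild type mice, and after quantile normalization it was -0.43 in knockout and -0.33 in wild type mice, and none of these passed. Gdnf thus had no tissue direction that held across the scales.

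Artn encodes artemin, which acts on sensory and sympathetic neurons through RET and GFRA3. Its probe set (1432032_a_at) read 5.06, 5.81 and 5.94 in knockout motoneurons and 5.91, 6.35 and 5.68 in wild type motoneurons, and in nerve 6.76, 6.43 and 7.30 in knockout and 6.40, 7.01 and 6.49 in wild type mice. The tissues did not overlap in either genotype, with differences of -1.23 in knockout (SE 0.31, adjusted p = 0.00508) and -0.66 in wild type mice (SE 0.25, adjusted p = 0.0372). The sign turned with the scale: after centring the difference was 0.54 in knockout (adjusted p = 0.131) and 1.104 in wild type mice (adjusted p = 0.00375), and after quantile normalization 0.64 in knockout (adjusted p = 0.0902) and 1.19 in wild type mice (adjusted p = 0.00275). The wild type call was also lost without nerve replicate 2 or 3, without motoneuron replicate 1 or 3 and with all 12 arrays in 1 fit (adjusted p = 0.0549 to 0.122 in these 5 fits).

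Bdnf, the neurotrophin that binds TrkB and supports motoneuron survival and synaptic function, was higher in motoneurons by both probe sets. The first (1422168_a_at) read 7.74, 8.32 and 7.72 in knockout motoneurons and 8.19, 8.26 and 7.92 in wild type motoneurons. In nerve it read 4.39, 4.87 and 4.89 in knockout and 4.20, 4.80 and 4.71 in wild type mice, well below every motoneuron array. The difference was 3.21 in knockout (SE 0.25, 95% CI 2.65 to 3.78, adjusted p = 2.80e-06) and 3.56 in wild type mice (SE 0.21, 95% CI 3.06 to 4.05, adjusted p = 1.93e-06). The second (1422169_a_at) read 6.47 to 7.16 in knockout and 7.02 to 7.15 in wild type motoneurons, and 4.95 to 5.44 in knockout and 4.62 to 5.58 in wild type nerve. It differed by 1.55 in knockout (adjusted p = 0.000414) and 2.003 in wild type mice (adjusted p = 0.00013). Both probe sets kept direction and call on the other scales, where the first gave 4.49 to 5.32 and the second 3.10 to 3.76. The probe sets thus shared a direction and differed in size.

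Lif, the cytokine that Schwann cells release after nerve injury, was higher in nerve. The brighter probe set (1421207_at) read 4.31, 4.70 and 4.39 in knockout motoneurons and 4.54, 5.12 and 4.55 in wild type motoneurons. In nerve it read 9.19, 8.72 and 9.96 in knockout and 9.17, 9.06 and 9.49 in wild type mice, so each nerve array lay far above each motoneuron array. The difference, motoneuron minus nerve, was -4.82 in knockout (SE 0.31, 95% CI -5.54 to -4.11, adjusted p = 9.75e-07) and -4.50 in wild type mice (SE 0.23, 95% CI -5.03 to -3.97, adjusted p = 8.17e-07). It was -2.74 to -3.22 on the other scales, with every call kept. The other probe set (1450160_at) differed by -2.66 in knockout and -2.17 in wild type mice. After centring it stood at -0.88 in knockout and -0.41 in wild type mice, and after quantile normalization at -1.02 in knockout and -0.47 in wild type mice. The knockout calls were kept and the wild type calls were not (adjusted p = 0.067 after centring and 0.0505 after quantile normalization).

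Igf1, the growth factor that binds the IGF1 receptor and acts on Schwann cells, axons and muscle, had the largest nerve excess among the 7 ligands. By the probe set with the highest mean (1452014_a_at) it read 8.98, 8.12 and 8.85 in knockout motoneurons and 8.20, 8.40 and 7.05 in wild type motoneurons. In nerve the same probe set read 13.62, 14.04 and 13.19 in knockout and 13.79, 13.98 and 13.01 in wild type mice. The tissues were separated by more than 4 log2 units at their closest arrays. The 4 probe sets differed between tissues by -6.03 to -4.43 in knockout and by -6.07 to -4.37 in wild type mice, with adjusted p-values of at most 2.34e-05 in knockout and 0.000131 in wild type mice. On the other scales they differed by -4.94 to -2.61 across genotypes, and every call was kept.

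Within nerve, the 4 Igf1 probe sets ranked the arrays of each genotype the same way, with replicate 2 highest and replicate 3 lowest. The second probe set (1437401_at), for instance, read 12.81, 13.09 and 12.54 in knockout nerve and 12.96, 13.30 and 12.55 in wild type nerve. The mean of 7 adipocyte markers ranked them alike, with 13.46, 13.97 and 12.74 in knockout and 13.55, 13.80 and 12.68 in wild type nerve. The mean of 14 macrophage markers did so over a narrower range, with 12.19, 12.47 and 12.13 in knockout and 12.13, 12.56 and 11.996 in wild type nerve. Means of 10 fibroblast markers, 13.72, 13.88 and 13.68 in knockout and 13.77, 14.001 and 13.58 in wild type nerve, had this order too, as did means of 12 endothelial and mural markers, 11.75, 11.85 and 11.64 in knockout and 11.80, 11.84 and 11.62 in wild type nerve. Other lists had another order. Means of 11 further Schwann cell markers were 11.10, 10.98 and 11.35 in knockout and 11.07, 11.01 and 11.27 in wild type nerve. Those of 9 myelinating Schwann cell markers were 14.39, 14.28 and 14.50 in knockout and 14.30, 14.32 and 14.48 in wild type nerve. Means of 15 muscle markers were lowest in replicate 2, at 10.45, 9.61 and 10.23 in knockout and 12.89, 8.62 and 11.62 in wild type nerve. The part of any of these cell types in the Igf1 values was not tested.

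In motoneurons all 4 Igf1 probe sets had a larger SD than in nerve, in both genotypes. For 1452014_a_at it was 0.46 in knockout motoneurons against 0.43 in knockout nerve, and 0.73 against 0.52 in wild type mice. For 1437401_at it was 0.47 in knockout motoneurons against 0.28 in knockout nerve, and 0.86 against 0.38 in wild type mice. The probe set 1434413_at read 7.31, 5.72 and 6.66 in knockout and 7.69, 7.89 and 4.83 in wild type motoneurons, with an SD of 0.80 in knockout and 1.71 in wild type motoneurons, against 0.29 in knockout and 0.43 in wild type nerve (n = 3 each). The probe set 1419519_at read 7.14, 5.49 and 7.54 in knockout and 7.52, 7.14 and 5.79 in wild type motoneurons. Both were lowest in knockout replicate 2 and wild type replicate 3, as was 1452014_a_at. The probe set 1437401_at was lowest in wild type replicate 3 too, but in knockout it read 7.02, 7.03 and 7.84, lowest in replicate 1. Knockout replicate 2 and wild type replicate 3 also had the lowest mean of 8 interneuron markers, with 9.51, 8.91 and 9.66 in knockout and 9.73, 9.74 and 8.83 in wild type motoneurons. Knockout replicate 2 was besides the only motoneuron array with a low value of Xist, the transcript of the inactive X chromosome, at 4.12 against 8.61 to 9.96 in the other motoneuron arrays. Xist divided the nerve arrays as well. It read 12.88 in knockout replicate 3 and 12.77 in wild type replicate 2, against 4.04 to 5.31 in the other nerve arrays. Whether these features bear on Igf1 was not tested.

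**Figure D2:**
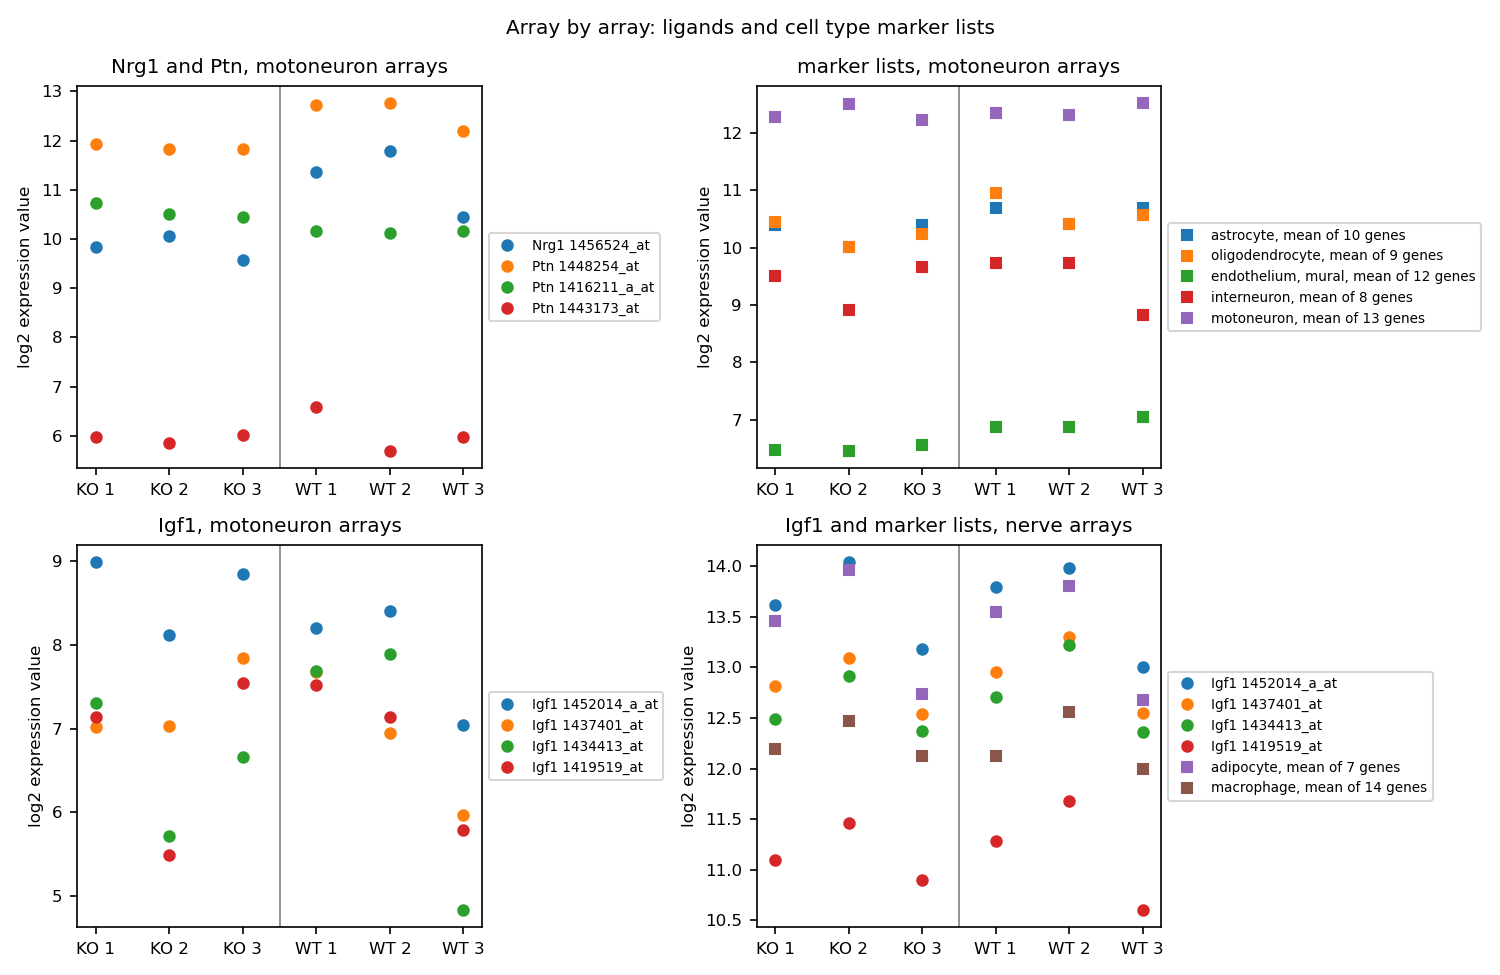
Log2 expression value (vertical axis) on each array (horizontal axis, knockout left of wild type) of Nrg1, Ptn and Igf1 probe sets (dots) and of the means of marker lists (squares). Levels of different probe sets are not comparable, and the panels show the order of the arrays: wild type motoneuron replicate 3 is the lowest of its group for Nrg1, for Ptn 1448254_at and for all 4 Igf1 probe sets, and in nerve Igf1 follows the order of the adipocyte and macrophage lists.

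Nrg1 showed the largest motoneuron excess of the 7 ligands. Its probe set (1456524_at) read 9.84, 10.05 and 9.57 in knockout motoneurons and 11.36, 11.78 and 10.44 in wild type motoneurons. In nerve it read 4.49, 4.93 and 5.54 in knockout and 6.44, 4.97 and 6.13 in wild type mice. Motoneurons exceeded nerve by 4.84 in knockout (SE 0.29, 95% CI 4.18 to 5.49, adjusted p = 5.32e-07) and by 5.35 in wild type mice (SE 0.46, 95% CI 4.29 to 6.41, adjusted p = 1.39e-05). The difference was 5.94 to 7.11 on the other scales. Group means were 9.82 ± 0.24 in knockout motoneurons, 11.20 ± 0.69 in wild type motoneurons, 4.99 ± 0.53 in knockout nerve and 5.85 ± 0.77 in wild type nerve (SD, n = 3 each). Wild type motoneurons were thus highest and knockout nerve lowest. The steps between the genotypes within a tissue did not pass, and knockout motoneurons were not tested against wild type nerve. The array measured Nrg1 by 1 probe set, which does not separate its isoforms.

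Ptn encodes pleiotrophin, a heparin-binding growth factor that denervated Schwann cells make and that binds PTPRZ1, ALK and syndecan 3. Its 3 probe sets did not share a pattern. The brightest (1448254_at) read 11.93, 11.84 and 11.82 in knockout motoneurons and 12.72, 12.75 and 12.19 in wild type motoneurons. In nerve it read 11.76, 12.08 and 12.44 in knockout and 12.26, 12.17 and 12.62 in wild type mice, so the tissues overlapped in both genotypes. The difference between tissues was -0.23 in knockout (95% CI -0.58 to 0.12, adjusted p = 0.193) and 0.21 in wild type mice (95% CI -0.22 to 0.63, adjusted p = 0.315). After centring it was 1.55 in knockout and 1.97 in wild type mice and after quantile normalization 0.45 in knockout and 0.82 in wild type mice, all of them called.

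The second Ptn probe set (1416211_a_at) read 10.72, 10.51 and 10.45 in knockout motoneurons and 10.17, 10.11 and 10.16 in wild type motoneurons, and 10.75, 10.82 and 11.25 in knockout nerve and 11.14, 10.71 and 11.003 in wild type nerve. Motoneurons lay below nerve by -0.38 in knockout (SE 0.16, adjusted p = 0.0494) and by -0.80 in wild type mice (SE 0.15, adjusted p = 0.00149). These signs turned after centring, to 1.40 in knockout and 0.96 in wild type mice, both called. After quantile normalization the difference was 0.49 in knockout, called, and 0.099 in wild type mice, not called (adjusted p = 0.602 by limma). The knockout call was also lost without nerve replicate 3, without motoneuron replicate 2 or 3, with array weights, with the replicate number as a block (adjusted p = 0.0698) and without a mean trend (adjusted p = 0.0593 to 0.155 over these fits). The third (1443173_at) read 5.86 to 6.02 in knockout and 5.69 to 6.58 in wild type motoneurons, and 7.68 to 7.92 in knockout and 7.47 to 8.28 in wild type nerve. Its difference of -1.89 in knockout and -1.83 in wild type mice shrank to between -0.11 and 0.011 on the other scales and was then not called. Ptn thus had no tissue direction shared by its probe sets and scales.

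**Figure D3:**
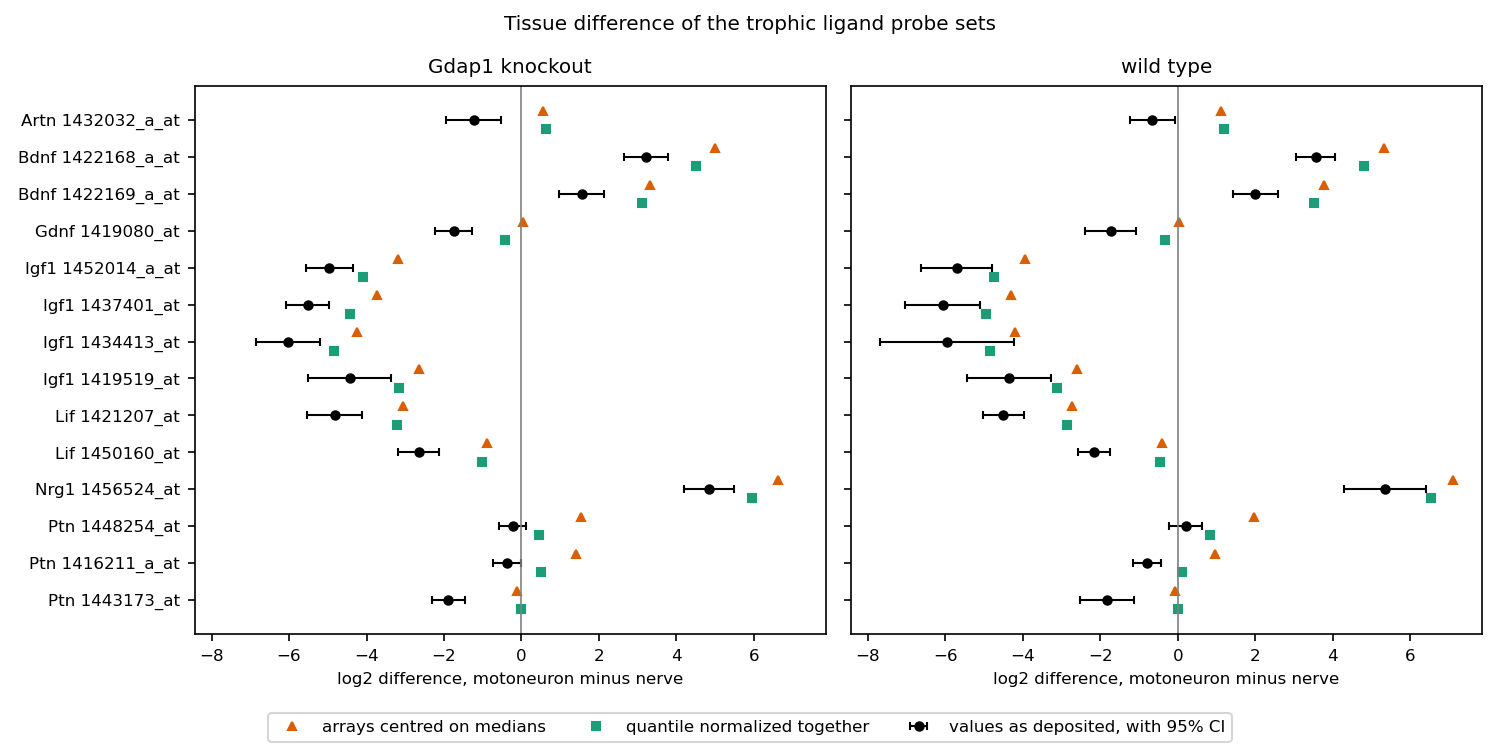
Log2 difference, motoneuron minus nerve (horizontal axis), of the 14 probe sets in knockout and in wild type mice, as deposited with 95% confidence intervals (circles), after centring each array on its median (triangles) and after quantile normalization together (squares). Nrg1 and Bdnf stay right of 0 and Igf1 and Lif stay left of it on all 3 scales, while Artn and Ptn markers lie on both sides and Gdnf moves to near 0.

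A further question was whether the loss of Gdap1 moved any of these ligands. In motoneurons none of the 14 probe sets passed (limma, 0% of all probe sets called), and 3 had an unadjusted p under 0.05, where 17% of all probe sets did. Of the 14 estimates 4 were above 0 and 10 below, with a median of -0.16, against 0.039 over all probe sets. The arrays of the genotypes did not overlap for 3 probe sets, 2 of them lower in knockout (9.77% of all probe sets) and 1 higher in knockout (12.7%).

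Nrg1 was the ligand with the largest genotype difference. Each knockout motoneuron array, at 9.57 to 10.05, lay below each wild type motoneuron array, at 10.44 to 11.78. The difference, knockout minus wild type, was -1.37 (SE 0.32, 95% CI -2.12 to -0.63, adjusted p = 0.124 by limma) and so did not pass. In nerve Nrg1 differed by -0.86 (SE 0.42, 95% CI -1.85 to 0.12, adjusted p = 0.99996), with overlap. The genotype difference in motoneurons minus that in nerve was -0.51 (95% CI -1.78 to 0.76, adjusted p = 0.857), an interval that holds differences of either sign.

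Ptn pointed both ways in motoneurons. By 1448254_at, knockout arrays at 11.82 to 11.93 lay below wild type arrays at 12.19 to 12.75, with a difference of -0.69 (SE 0.15, 95% CI -1.04 to -0.35, adjusted p = 0.120). By 1416211_a_at, knockout arrays at 10.45 to 10.72 lay above wild type arrays at 10.11 to 10.17, with a difference of 0.41 (SE 0.12, 95% CI 0.13 to 0.70, adjusted p = 0.173). By 1443173_at the genotypes overlapped, with a difference of -0.13 (95% CI -0.73 to 0.47). None of the 3 passed, and probe sets of 1 gene that disagree in sign give no direction for that gene.

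The count of calls between genotypes in motoneurons moved with the setting. With all 12 arrays in 1 fit 828 probe sets passed, and among the brighter probe sets 61 did, in neither case a member. Member calls appeared only with array weights or without wild type replicate 3. Without that array Nrg1 differed by -1.75 (adjusted p = 0.00524) and Ptn 1448254_at by -0.87 (adjusted p = 0.00453), both called lower in knockout, where 5.64% of all probe sets were called lower. With limma's array weights over all 6 arrays the same 2 probe sets were called, at -1.58 and -0.79 (adjusted p = 0.0233 and 0.0232), where 3.8% of all probe sets were called lower. Other features of the arrays moved with genotype or with that array. The 18S RNA probe set read 14.67, 14.67 and 14.66 in knockout motoneurons and 13.94, 13.77 and 14.64 in wild type motoneurons, and the spiked bioB control read 10.53, 10.29 and 10.45 in knockout and 11.10, 11.32 and 11.29 in wild type motoneurons. The mean of 12 endothelial and mural markers was 6.46, 6.45 and 6.55 in knockout and 6.88, 6.87 and 7.05 in wild type motoneurons, with 12 of 12 estimates below 0 and none called. The mean of 9 oligodendrocyte markers was 10.45, 10.01 and 10.24 in knockout and 10.96, 10.41 and 10.58 in wild type motoneurons, again with 9 of 9 estimates below 0 and none called. Astrocyte markers averaged 10.39, 10.01 and 10.40 in knockout and 10.70, 10.41 and 10.69 in wild type motoneurons, but were mixed, with 7 of 10 estimates below 0, 3 above and none called. The motoneuron markers overlapped, at 12.29, 12.50 and 12.23 in knockout and 12.35, 12.31 and 12.52 in wild type motoneurons. The part of these features in the Nrg1 and Ptn values was not tested.

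The other ligands overlapped between genotypes in motoneurons. Igf1 differed by 0.77, 0.43, -0.24 and -0.10 by its 4 probe sets, and the interval of the third, -2.10 to 1.63, shows how little the spread of that probe set allows to be said. Bdnf differed by -0.20 (95% CI -0.72 to 0.33) and -0.35 (95% CI -0.91 to 0.21), Lif by -0.27 and -0.044, Artn by -0.38 (95% CI -1.07 to 0.31) and Gdnf by 0.034 (95% CI -0.33 to 0.39). The adjusted p-values of these 10 probe sets ranged from 0.370 to 0.959.

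In nerve, too, none of the 14 probe sets passed (0% of all probe sets), and every one had an adjusted p of 0.99996. The member with an unadjusted p under 0.05, where 2.31% of all probe sets had one, was Lif 1450160_at. It read 6.47, 6.65 and 6.73 in knockout nerve and 5.97, 6.19 and 6.37 in wild type nerve, so the groups did not overlap and knockout lay higher, as 3.58% of all probe sets did. The difference was 0.44 (SE 0.17, 95% CI 0.049 to 0.83), but the brighter Lif probe set overlapped and differed by 0.049 (95% CI -0.68 to 0.78). The remaining estimates in nerve, Nrg1 aside, lay between -0.25 and 0.20. For Igf1 the 4 probe sets gave 0.021, -0.12, -0.17 and -0.038, with intervals running from -0.71 at the lowest to 0.71 at the highest. The spiked bioB control read 10.35 to 10.48 in knockout and 11.43 to 11.68 in wild type nerve. Of 15 muscle markers, 14 had estimates below 0 and 1 above, with none called. Their median was -0.82, against 0.010 over all probe sets, and their mean ranged from 8.62 to 12.89 among wild type nerve arrays. The part of these features in the Lif value was not tested.

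The genotype differences of the 2 tissues were set against each other in 1 fit over the 12 arrays. None of the 14 probe sets passed (0% of all probe sets) and none had an unadjusted p under 0.05, where 7.54% of all probe sets did. The smallest adjusted p was 0.684, for Ptn 1416211_a_at at 0.42 (95% CI -0.055 to 0.90).

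**Figure D4:**
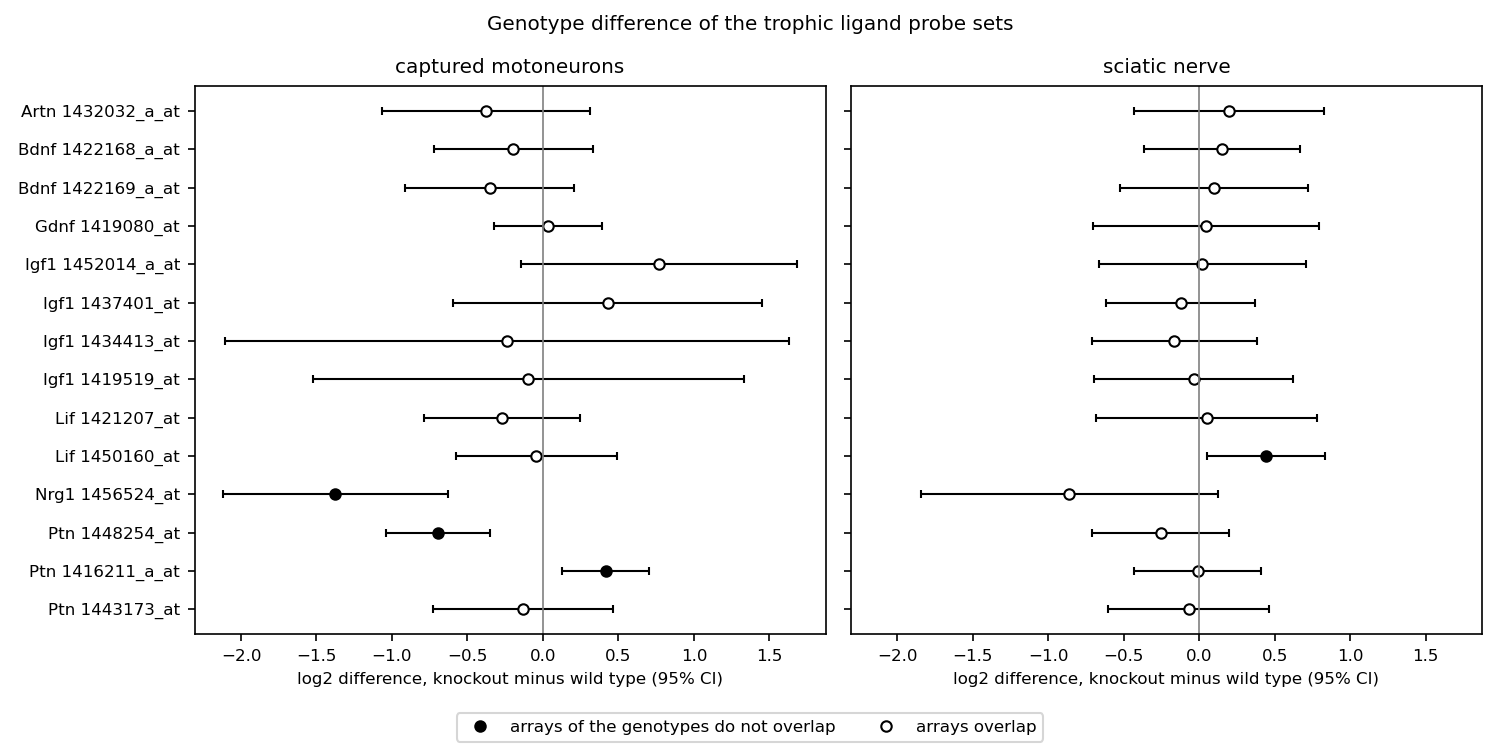
Log2 difference, knockout minus wild type, with 95% confidence intervals (horizontal axis), of the 14 probe sets in motoneurons and in nerve, filled where the arrays of the genotypes do not overlap. In motoneurons Nrg1 at -1.37 and Ptn 1448254_at at -0.69 lie left of 0 and Ptn 1416211_a_at at 0.41 lies right of it, and no probe set in either panel has an adjusted p under 0.05.

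Ligands act with partners, so lists of other ligands, receptors, binding proteins, processing enzymes and intracellular adaptors were read in the same fits, each gene by its probe set of highest mean. As deposited, 15.2% of all probe sets were called higher in motoneurons and 67.5% lower in knockout mice. In wild type mice the shares were 14.3% higher and 67.9% lower. Of the 45037, centring called 25508 higher and 11188 lower in knockout and 24727 higher and 11106 lower in wild type mice. Quantile normalization called 18221 higher and 15118 lower in knockout and 17832 higher and 14806 lower in wild type mice. The receptors were mixed. Of 25 measured of 26 receptors, 3 were called higher and 19 lower in motoneurons in knockout mice, and 4 higher and 18 lower in wild type mice. As deposited the median was -1.38 in knockout and -1.35 in wild type mice, near the -1.04 and -1.09 of all probe sets. Centring gave 13 higher and 11 lower in knockout and 13 higher and 9 lower in wild type mice. Quantile normalization gave 9 higher and 15 lower in knockout and 7 higher and 13 lower in wild type mice. On that scale the receptor median was -0.56 in knockout and -0.67 in wild type mice, below the 0.16 and 0.15 of all probe sets. Ret, the signalling receptor of the GDNF family and also in the motoneuron marker list, was higher in motoneurons by 2.85 in knockout and 3.66 in wild type mice. Alk, a receptor for pleiotrophin, was higher by 2.28 in knockout and 2.07 in wild type mice. Erbb2, the receptor subunit through which Schwann cells answer neuregulin, was lower in motoneurons, by -4.95 in knockout and -4.93 in wild type mice. It read 5.41 to 5.76 in knockout and 5.65 to 5.69 in wild type motoneurons, and 10.32 to 10.61 in knockout and 10.53 to 10.63 in wild type nerve. The EGF receptor Egfr was lower, at -5.77 in knockout and -6.44 in wild type mice. Osmr, the receptor subunit for oncostatin M, was lower by -5.13 in wild type mice, and Il6st, which encodes gp130, by -2.48 in knockout mice. Gfra4 was higher by 1.34 in knockout mice, and Ptprz1 by 2.04 in wild type mice, against 0.87 in knockout mice (adjusted p = 0.0575). On the other scales Ptprz1 was called in knockout mice too. It was higher there by 2.65 after centring (adjusted p = 9.86e-05 by limma) and 2.45 after quantile normalization (adjusted p = 0.000605).

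IGF binding and release proteins stood furthest to the nerve side by their median, -4.15 in knockout and -3.996 in wild type mice. Of 11 measured of 11, 1 was called higher and 7 lower in motoneurons in knockout mice, and 2 higher and 8 lower in wild type mice. Of all probe sets, 67.5% were called lower in knockout and 67.9% in wild type mice. As deposited, the counts alone thus did not set the list apart. Centring and quantile normalization kept 7 or 8 of the 11 lower and called 3 higher in each genotype, with medians of -2.80 to -2.24. Igfbp6 differed by -6.55 in knockout and -7.22 in wild type mice, Igfbp5 by -6.44 in knockout and -6.26 in wild type mice, and Igfbp7 by -5.78 in knockout and -5.62 in wild type mice. Pappa, the protease that cuts IGF binding proteins and frees IGF, went the other way. It read 10.90, 11.27 and 10.76 in knockout and 10.58, 10.13 and 10.94 in wild type motoneurons, and 6.41, 6.22 and 6.71 in knockout and 6.25, 7.22 and 5.91 in wild type nerve. The difference was 4.53 in knockout and 4.09 in wild type mice. Igfbp2 was higher in motoneurons by 1.57 in wild type mice, against 0.65 in knockout mice (adjusted p = 0.112). On the other scales Igfbp2 was called in knockout mice too. It was higher there by 2.43 after centring (adjusted p = 0.000113 by limma) and 2.16 after quantile normalization (adjusted p = 0.00108).

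Of 19 measured of 24 other trophic ligands, 1 was called higher and 16 lower in motoneurons in knockout mice, and 1 higher and 18 lower in wild type mice. Their median was -1.84 in knockout and -1.55 in wild type mice, and these counts moved with the scale. Centring gave 7 higher and 7 lower in knockout and 9 higher and 7 lower in wild type mice, and quantile normalization gave 4 higher and 7 lower in knockout and 4 higher and 8 lower in wild type mice. The one called higher as deposited was Nrg3, a neuregulin that binds ERBB4, at 6.35 in knockout and 6.84 in wild type mice. It read 10.37 to 10.54 in knockout and 10.49 to 10.83 in wild type motoneurons, against 3.69 to 4.38 in knockout and 3.70 to 4.02 in wild type nerve. Among the lower ones were Igf2, at -7.60 in knockout mice, Mdk, which encodes midkine, the relative of pleiotrophin, at -3.29 in knockout mice, and Ctf1, which encodes cardiotrophin 1, at -5.21 in knockout and -4.36 in wild type mice. Fgf2 and Il11 were lower by -4.18 and -3.87 in wild type mice.

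Of 14 measured of 16 processing enzymes, 3 were called higher in motoneurons in each genotype, and 9 were called lower in knockout and 8 in wild type mice. Centring gave 6 higher and 7 lower in knockout and 6 higher and 5 lower in wild type mice, and quantile normalization gave 6 higher and 7 lower in knockout and 6 higher and 8 lower in wild type mice. Pcsk1, a prohormone convertase of neurons and endocrine cells, was higher by 2.10 in knockout and 2.26 in wild type mice, with Mmp9 at 1.54 in knockout and 2.04 in wild type mice and Adam19, a protease that can shed neuregulin, at 0.66 in knockout and 1.25 in wild type mice. Furin, the general convertase of growth factor precursors, was lower by -2.003 in knockout and -1.88 in wild type mice, a call that centring ended in wild type mice (adjusted p = 0.170). Adam10 and Mmp3 were lower by -2.82 and -5.82 in knockout mice, and Pcsk5 and Adam17 by -5.14 and -4.76 in wild type mice. Of 21 measured of 26 adaptors and kinases, 5 were called higher and 15 lower in knockout and 3 higher and 13 lower in wild type mice, while centring gave 13 higher and 8 lower in knockout and 13 higher and 7 lower in wild type mice, and quantile normalization 10 higher and 9 lower in each genotype. Dok5, an adaptor of neuronal receptor tyrosine kinases, was higher by 2.15 in knockout and 1.75 in wild type mice, and the kinase Jak1 by 0.77 in knockout and 0.55 in wild type mice. The adaptor Gab1 was lower, at -4.48 in knockout and -3.96 in wild type mice, as was the kinase Jak2, at -2.85 in knockout and -2.83 in wild type mice. Frs3, an adaptor of FGF and Trk receptors, was higher by 1.98 in wild type mice, and Shc3, an adaptor of neurons, by 0.98 in knockout mice. Pik3r1, a regulatory subunit of PI3 kinase, was lower by -3.19 in knockout mice, and Irs1, the adaptor of the insulin and IGF1 receptors, by -2.63 in wild type mice. Each partner gene named so far that was called kept its direction on all 3 scales, and each kept its call but Furin.

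**Figure D5:**
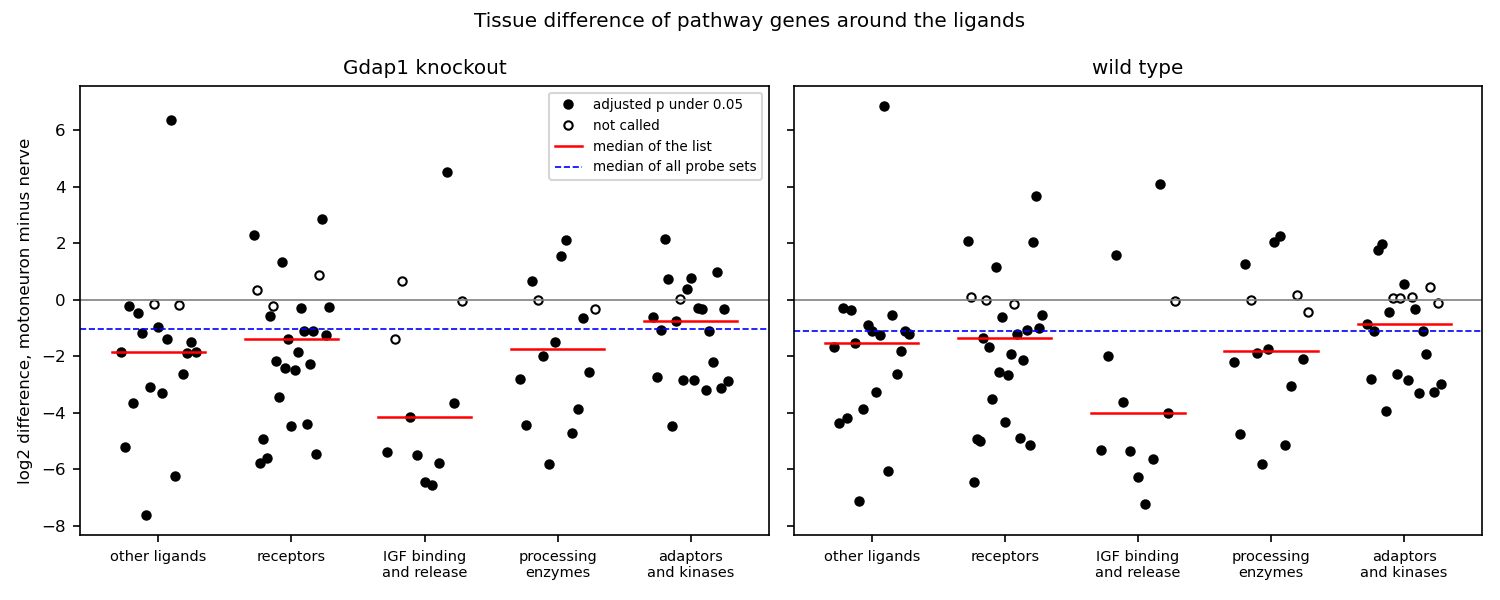
Log2 difference, motoneuron minus nerve (vertical axis), of each measured gene in the 5 partner lists, in knockout and in wild type mice, filled where called, with the median of the list (red line) and of all probe sets (dashed line). The IGF binding list has its median at -4.15 in knockout and -3.996 in wild type mice, further from the dashed line than the other 4 lists.

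Between genotypes none of the partner genes passed in either tissue or in the difference between tissues. In motoneurons 4 receptors and 1 protease were picked for display after their values were seen. The receptor with the smallest p was Ret, which read 13.43, 13.42 and 13.41 in knockout and 13.80, 13.81 and 13.68 in wild type motoneurons, a difference of -0.35 (SE 0.051, adjusted p = 0.0945). Igf2r, the receptor that clears IGF2, differed by -0.88 (SE 0.17, adjusted p = 0.109). Ptprz1, a receptor of pleiotrophin that glia express, differed by -1.22 (SE 0.25, adjusted p = 0.118) and read 8.08, 8.46 and 8.60 in knockout and 9.82, 9.88 and 9.11 in wild type motoneurons. Sort1, which encodes sortilin, a sorting receptor for BDNF, differed by 0.37 (SE 0.088, adjusted p = 0.126), and Adam10 by -0.63 (SE 0.14, adjusted p = 0.120). For each of these 5 genes the arrays of the genotypes did not overlap. Over all probe sets, 9.77% lay lower in knockout motoneurons without overlap and 12.7% higher. As the 5 were picked with their values known, their count does not describe the partner lists. For Ret, Igf2r, Ptprz1 and Adam10 wild type replicate 3 was the lowest wild type array, and for Sort1 it was the highest.

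Over the 12 arrays, the genes whose centred profile lay nearest to each ligand's brightest probe set were found by the root mean square (RMS) of the log2 differences. For Ptn these were Zbtb18 and Golga4, at 0.0954 and 0.109, and for Gdnf Sec24c and Pisd-ps3, at 0.168 and 0.172. For Artn they were Zbtb24 and Mamstr, at 0.185 and 0.219, for Bdnf Htr7 and A330102I10Rik, at 0.198 and 0.212, and for Lif F2rl2 and Ackr4, at 0.232 and 0.258. For Igf1 they were Mylk and Adh1, at 0.334 and 0.344. Nrg1 had the most distant nearest genes, Vstm2a and Gpr22, at 0.483 and 0.494. How far these distances follow the difference between the 2 tissues, which all 12 arrays share, was not tested.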

How the data were processed

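Each group was hybridised to 3 Affymetrix arrays, 12 in all. Amplification started at 20 ng of total RNA, and nerve and motoneuron RNA were extracted with different kits, per the labels' protocols. The deposited log2 values were made by the authors with Affymetrix Expression Console 1.1, per the submitters' processing notes. How they were summarized and normalized is not given in the sources used here, and the range of the values shows a log2 scale. Of 45101 probe sets, 64 controls were left out. The platform annotation gave 34945 of the others 1 symbol, of which 34741 were updated by gene identifier through RefSeq.

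Tests used limma 3.58.1 under R 4.3.3 (lmFit, eBayes with a mean trend, two-sided, Benjamini-Hochberg adjustment over 45037 probe sets, threshold 0.05) on the arrays each comparison involves. The fit was tried on simulated data with independent noise and seeded differences larger than any genotype difference of a member. That trial says nothing on smaller differences or on features that arrays share. Alternatives were centring, quantile normalization, a filter on dim probe sets, no trend, array weights, a replicate block, Xist as a covariate, 1 fit over all 12 arrays and each array left out. The members and lists were chosen with earlier results of these data known. The text names every member probe set and, per partner list and comparison, up to 3 genes a direction by smallest p. Between genotypes, where none of these passed, only 5 of them are named, picked after their values were seen. Likeness names 2 genes a member. Arrays have no read depth, no detection calls were used, and the 3 arrays a group limit the precision. Each p-value sets a difference against the spread between arrays, as moderated by limma over all probe sets. The arrays come from samples picked by RNA, so that spread need not be that of unselected mice.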

Additional observations from a re-analysis of the deposited data

How the results depend on the processing

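Between tissues, the scale decided part of the results. Centring turned the sign of Artn (0.54 in knockout, not called, and 1.104 in wild type) and Ptn 1416211_a_at (1.40 in knockout, 0.96 in wild type). It left Gdnf near 0, at 0.026 in knockout and 0.022 in wild type mice, neither of them called. Quantile normalization turned Artn (0.64 in knockout, not called, and 1.19 in wild type) and Ptn 1416211_a_at (0.49 in knockout, and 0.099 in wild type, not called). Ptn 1448254_at in knockout mice moved to 1.55 with centring and 0.45 with quantile normalization. Ptn 1443173_at in wild type mice moved to 0.011 with quantile normalization and was not called. Among the brighter probe sets alone, fewer of which were tested, 19115 were called between tissues in knockout mice (5 of them members) and 18336 in wild type mice (6 of them members). Between genotypes in motoneurons, 61 probe sets passed among the brighter ones, 2929 with array weights (2 of them members) and 828 with all 12 arrays in 1 fit, against 0 in the fit reported. Leaving out 1 array at a time gave 0 to 4646 calls and 0 to 2 member calls. In nerve 1 probe set passed with all 12 arrays. The difference of the genotype effects had 0 to 238 calls with 1 array left out, the most without wild type motoneuron replicate 3, and 2 without wild type nerve replicate 2 or without wild type motoneuron replicate 1. The replicate numbers were not shown to pair the arrays: deviations of same-numbered arrays correlated at 0.026 to 0.31 between genotypes in nerve and at -0.079 to 0.090 in motoneurons. With the replicate number as a block, 0 probe sets were called between genotypes in motoneurons (6773 at an unadjusted p under 0.05) and 0 in nerve, and 36960 were called between tissues in knockout and 36402 in wild type mice. The block ended the call of Ptn 1416211_a_at in knockout mice (adjusted p = 0.0698) and changed no other member call. Of the members' values under these alternatives, 171 of 191 between genotypes in motoneurons and 163 of 189 in nerve kept their sign and their side of the threshold, and the sign changes, 16 in motoneurons and 26 in nerve, were all of values never called. The cause of the differences between settings was not tested. Dim values, such as those of Gdnf, limit what the arrays can show.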
